A study of Mus musculus with 77 samples.

Results

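The genes described here are 9 transcripts that mark microglia, the resident macrophages of the brain: Aif1, P2ry12, Tmem119, C1qa, C1qb, C1qc, Trem2, Siglech and Tyrobp. They were taken by symbol from a table of AGO2-bound mRNA in the mouse bed nucleus of the stria terminalis (BNST), a forebrain region that regulates anxiety, and all 9 were among its 16587 genes. Every library came from a pool of 3 BNST of wild-type male C57BL/6Crl mice (C57BL/6NCrl in the study's methods), 8 weeks old at dissection. Defeated mice had gone through chronic social defeat stress (CSDS), in which a larger aggressive CD-1 mouse attacks the test mouse daily, and their tissue was taken 6 to 8 days after the last defeat. They were sorted by a social avoidance test into susceptible mice, which avoided a strange mouse, and resilient mice, which approached it about as much as controls did. Per the methods of the study, the resilient mice taken for sequencing had the highest scores in that test and the susceptible mice the lowest. Control mice of the same strain were not defeated, and those with scores closest to the mean were taken. There were 5 control, 5 resilient and 4 susceptible pools. AGO2, the protein that holds a microRNA against its target transcript, was pulled down from each pool, so a value gives transcript recovered with AGO2 and not total transcript, and no input library was used here.

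Microglia survey the tissue with fine processes and clear debris, dying cells and synapses. P2RY12 is their receptor for extracellular nucleotides and steers the processes towards damage. TMEM119 is a membrane protein used to tell them from other macrophages, AIF1 (also called IBA1) binds actin, and SIGLECH is a receptor of the sialic acid-binding family. C1qa, C1qb and C1qc encode the chains of C1q, which starts the classical complement pathway and tags synapses for removal. TREM2 senses lipids and signals through the adaptor TYROBP, also called DAP12, with which SIGLECH pairs as well. In a tissue pool, fewer microglia and less of a transcript per microglial cell cannot be told apart.

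Each control pool held between 4496314 and 6162932 reads on retained genes, each resilient pool between 3701281 and 10659882, and each susceptible pool between 5146998 and 7604641. Resilient pool 3 was the deepest and had the lowest array weight, 0.428, so results are also given without it. Markers of BNST neurons were present, with all 10 of a list that includes Gad1 and Gad2 in the table. Markers of border-associated macrophages, which sit at the meninges and vessels, were mostly missing, since 3 of 11 were in the table (Mrc1, Cd163 and F13a1) and their summed level was 2.28 to 6.53 CPM (reads scaled to the library size) in control pools, 3.04 to 5.26 in resilient pools and 3.68 to 5.16 in susceptible pools. Lyve1, Pf4 and Cd74 were among the 8 that were not.

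The 9 microglial genes were read at low depth, between 4 and 208 reads per gene and pool. Their summed level was 75.6 to 84.5 CPM in the control pools, 69.5 to 89.1 CPM in the resilient pools and 62.0 to 81.1 CPM in the susceptible pools, so that the groups overlapped in the total. Per kilobase of annotated exon, the control pools had the highest level for C1qb, at 3.26 ± 0.19 log2 CPM per kilobase (SD, n = 5). C1qa followed at 2.69 ± 0.31, Siglech at 2.60 ± 0.26, P2ry12 at 2.58 ± 0.20 and Tyrobp at 2.53 ± 0.23, and these 4 levels lay within the SD of one another. C1qc stood at 2.18 ± 0.25, Tmem119 at 1.64 ± 0.27, Aif1 at 1.07 ± 0.42 and Trem2 at -0.51 ± 0.33 log2 CPM per kilobase. The level of Trem2 per kilobase counts a long annotated transcript that codes for no protein. With the length of the longest protein-coding transcript, Trem2 stood at 1.68, C1qc at 2.86, Siglech at 3.16 and Aif1 at 1.87. C1qb was then still the highest, but Siglech lay within its SD. Trem2 was still the lowest, within the SD of Tmem119 and Aif1.

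The plot of values by pool shows all 9 genes in every library. 

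**Figure D1:**
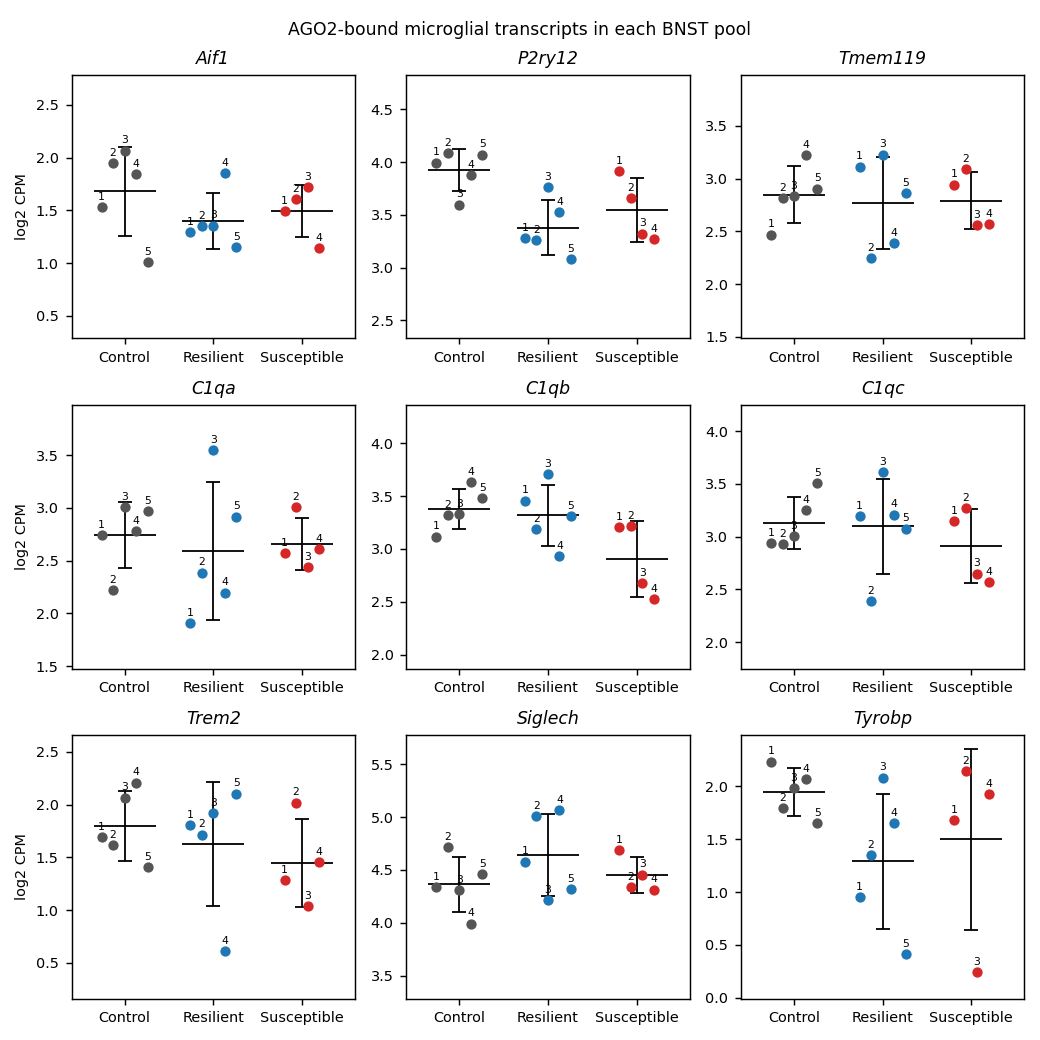
Level of each gene (log2 CPM, vertical axis) in each pool (numbered points) of the control, resilient and susceptible groups; the horizontal bar is the mean and the error bar the SD, and each panel spans the same height of 2.5 log2 units around its own middle. In P2ry12, 4 of 5 resilient pools lie below every control pool, in C1qb susceptible pools 3 and 4 lie below all other pools, and Tyrobp and C1qa have the widest resilient groups and Tyrobp the widest susceptible group.

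The comparison of defeated with control pools asks which AGO2-bound transcripts differ after stress. P2ry12 was the microglial gene called lower in both defeated groups. In control pools 1 to 5 it stood at 4.00, 4.08, 3.60, 3.88 and 4.07 log2 CPM, in resilient pools 1 to 5 at 3.28, 3.26, 3.76, 3.52 and 3.08, and in susceptible pools 1 to 4 at 3.92, 3.66, 3.32 and 3.27. Among the resilient pools only pool 3 reached into the control range, and 2 of 4 susceptible pools did so. In the resilient group P2ry12 fell by 0.54 log2 units (SE 0.17, a fold of 0.686 with a 95% interval of 0.536 to 0.877, p = 0.00478, adjusted p = 0.0914), and an exact permutation test of the pools gave p = 0.0159. In the susceptible group it fell by 0.38 log2 units (SE 0.18, a fold of 0.767 with an interval of 0.591 to 0.996, p = 0.0466, adjusted p = 0.228), with an exact permutation p = 0.0635. The resilient call held in all 23 other settings, whereas the susceptible one was lost in 13 of 23. Among these were the fits without control pool 1, 2, 4 or 5, resilient pool 1 or 4, or susceptible pool 2, 3 or 4, where the log2 difference lay between -0.29 and -0.42. Without resilient pool 3, P2ry12 in resilient pools fell by 0.64, with an adjusted p = 0.0235. Both comparisons use the same 5 control pools, so their values are not independent of each other.

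P2ry12 lies at chr3:59216272-59262871 on the minus strand of GRCm38, inside the gene Med12l on the plus strand, with which it shares 9 exonic bases. Med12l is far more abundant, at a mean of 7.86 log2 CPM. Its differences from control were 0.14 in resilient and 0.12 in susceptible pools, in the opposite direction and not called. The library kit keeps strand, but the strand setting of the counting is not given in the sources used here. P2ry12 was in blood too, with a median of 8.42 log2 CPM in the blood cells of 5 control C57BL/6Crl mice, in a table normalised separately. Beside its fall, the summed level of 5 of 9 blood markers in the table was 14.3 to 18.7 CPM in control pools, 9.61 to 20.9 CPM in resilient pools and 11.0 to 18.2 CPM in susceptible pools. Of these, the haemoglobin genes Hba-a1 and Hba-a2 were called lower in resilient pools, with differences of -0.82 and -1.07. The haemoglobin genes Hbb-bs and Hbb-bt and the gene Alas2 were not called there, with differences of -0.02, 0.00 and -0.14. Hbb-bs was the most abundant of them, at a mean of 2.90 log2 CPM. The neutrophil genes S100a8 and S100a9 were not in the table. The part of blood in the P2ry12 values was not tested.

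C1qb was called lower in the susceptible pools. It stood at 3.12, 3.32, 3.33, 3.63 and 3.48 log2 CPM in control pools 1 to 5, at 3.46, 3.19, 3.71, 2.93 and 3.31 in the resilient pools, and at 3.21, 3.21, 2.68 and 2.52 in susceptible pools 1 to 4. Susceptible pools 3 and 4 were below all 10 control and resilient pools, while pools 1 and 2 fell among them. Relative to controls, C1qb of the susceptible group fell by 0.47 log2 units (SE 0.20, a fold of 0.721 with an interval of 0.540 to 0.962, p = 0.0285, adjusted p = 0.182), with an exact permutation p = 0.0317. This call was lost without control pool 4, control pool 5, susceptible pool 3 or susceptible pool 4, where the log2 difference was -0.41, -0.45, -0.40 and -0.34, and under scaling to total reads (-0.40), voom weights (-0.39) and the replicate block (-0.46), so in 7 of 23 settings in all. Against resilient pools the difference was -0.41 (SE 0.20, interval of the fold 0.563 to 1.00, p = 0.0512, adjusted p = 1.00, exact permutation p = 0.111), and -0.32 without resilient pool 3. In resilient pools against controls it was -0.06 (interval of the fold 0.732 to 1.26).

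The other C1q chains lie beside C1qb on chromosome 4, all on the minus strand, with C1qb at chr4:136880129-136886187, C1qc at chr4:136889804-136893065 and C1qa at chr4:136895917-136898803. C1qc stood at 2.94, 2.93, 3.01, 3.25 and 3.50 log2 CPM in the control pools, at 3.20, 2.39, 3.61, 3.21 and 3.08 in the resilient pools and at 3.15, 3.27, 2.65 and 2.57 in the susceptible pools. Here too susceptible pools 3 and 4 lay below every control pool, but resilient pool 2 was lower still, and the difference from control was -0.22 (SE 0.23, exact permutation p = 0.286). C1qa stood at 2.74, 2.22, 3.01, 2.78 and 2.97 in the control pools, at 1.91, 2.39, 3.55, 2.20 and 2.92 in the resilient pools and at 2.57, 3.01, 2.44 and 2.61 in the susceptible pools. Its resilient pools held both its lowest value, in pool 1, and its highest, in pool 3, and its differences from control were -0.15 and -0.09. Without resilient pool 3 the resilient difference was -0.39 for C1qa, -0.16 for C1qb and -0.16 for C1qc, none of them called. Differences between the chains in their response were not tested.

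Tyrobp had the widest spread of the 9 genes. It stood at 2.24, 1.79, 1.99, 2.07 and 1.65 log2 CPM in the control pools, at 0.96, 1.35, 2.08, 1.65 and 0.41 in the resilient pools and at 1.68, 2.15, 0.24 and 1.93 in the susceptible pools. The control pools lay close together. Resilient pools 1, 2 and 5 were below all of them, and resilient pool 4 was level with the lowest, control pool 5, on 19 reads each. Among the susceptible pools only pool 3 was below all control pools. These values rest on 4 to 45 reads, and the within-group SD of 0.61 compares with 0.39 from counting error alone. The difference in resilient pools was -0.66 (SE 0.36, interval of the fold 0.374 to 1.07, p = 0.0863, exact permutation p = 0.0635), and in susceptible pools -0.45 (SE 0.38, p = 0.257). Without resilient pool 3 the resilient difference was -0.86 and was called (limma adjusted p = 0.130). It was also called without susceptible pool 3, which enters through the shared estimate of the spread (limma adjusted p = 0.220).

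Trem2, the partner of Tyrobp, stood at 1.69, 1.62, 2.07, 2.21 and 1.41 log2 CPM in the control pools, at 1.80, 1.72, 1.92, 0.61 and 2.10 in the resilient pools and at 1.28, 2.02, 1.04 and 1.46 in the susceptible pools. Resilient pool 4 was far below the other resilient pools, on 9 reads. The differences from control were -0.17 (SE 0.30, interval of the fold 0.575 to 1.38) and -0.35 (SE 0.32, interval 0.494 to 1.25), neither of them called, and without resilient pool 3 the resilient one was -0.24.

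Siglech, which also pairs with TYROBP, was the gene whose mean was above control in both defeated groups. It stood at 4.34, 4.71, 4.31, 3.99 and 4.46 log2 CPM in the control pools, at 4.58, 5.01, 4.22, 5.07 and 4.32 in the resilient pools and at 4.69, 4.34, 4.46 and 4.31 in the susceptible pools. Resilient pools 2 and 4 exceeded every control pool, and the other 3 lay within the control range. The differences from control were 0.28 in resilient pools (SE 0.17, interval of the fold 0.940 to 1.56, exact permutation p = 0.214) and 0.09 in susceptible pools (SE 0.18, exact permutation p = 0.579). Without resilient pool 3 the resilient difference was 0.38 and was called (limma adjusted p = 0.143).

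Aif1 stood at 1.53, 1.95, 2.07, 1.84 and 1.01 log2 CPM in the control pools, at 1.30, 1.35, 1.36, 1.86 and 1.15 in the resilient pools and at 1.50, 1.61, 1.72 and 1.15 in the susceptible pools. Its within-group SD of 0.33 was no larger than the 0.37 expected from counting 7 to 27 reads, and the groups overlapped. Tmem119 stood at 2.47, 2.81, 2.83, 3.22 and 2.90 in the control pools, at 3.11, 2.25, 3.23, 2.39 and 2.86 in the resilient pools and at 2.94, 3.09, 2.56 and 2.57 in the susceptible pools. Its differences from control were the smallest of the 9 in susceptible pools, at -0.06 (interval of the fold 0.686 to 1.35), and -0.08 in resilient pools (interval 0.687 to 1.30). Without resilient pool 3 the resilient difference was -0.20 for Tmem119 and -0.27 for Aif1, against -0.28 for Aif1 with it.

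A call here is the rule of the study, an unadjusted p under 0.05 with a fold change of 1.2 or more in either direction. It was applied here to values without the study's adjustment for experimental cohort. In resilient pools against controls 1 of 9 genes was called lower and 0 higher, where 9.04% of all 16587 genes were called lower and 8.65% higher. In susceptible pools against controls 2 of 9 were called lower and 0 higher, with 9.28% of all genes lower and 9.65% higher. In susceptible against resilient pools 0 of 9 were called, with 1.19% of all genes lower and 0.953% higher. At an adjusted p under 0.05 (limma, all pools fitted), 0 of 9 passed in any comparison, against 1.95%, 4.02% and 0% of all genes, while at an unadjusted p under 0.05 the counts were 1, 2 and 0. The means of 8 of 9 genes were below control in both defeated groups. The median difference was -0.15 in resilient and -0.22 in susceptible pools, where the median over all genes was -0.02 and -0.01. Scaled to total reads, 7 of 9 were below control in susceptible pools. The 9 genes share their pools and both comparisons share the controls, so these are not independent results. In susceptible against resilient pools 4 of 9 were below 0 and the median was 0.03.

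The plot of fold changes sets these intervals side by side.

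**Figure D2:**
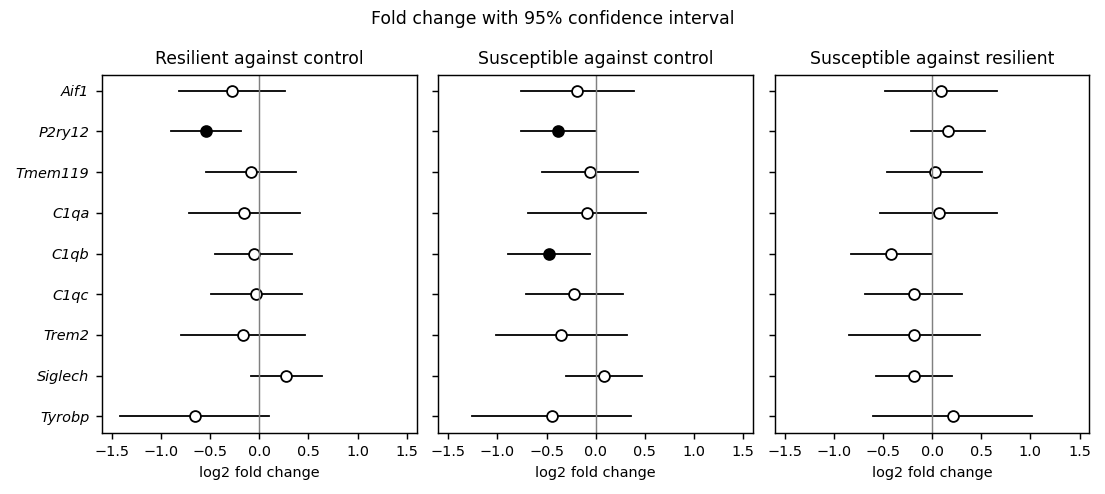
Log2 fold change (horizontal axis) of each gene in the 3 comparisons; lines are 95% confidence intervals from limma, and filled circles mark genes that met the call rule. P2ry12 is filled in both comparisons with control and C1qb in susceptible pools against control, and the interval of Tyrobp is the widest.

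Markers of some other cells moved with the same groups. The summed level of 8 neuronal markers was 2730 to 3031 CPM in control pools, 2479 to 2724 CPM in resilient pools and 2025 to 2634 CPM in susceptible pools, with every defeated pool below every control pool, and 5 of 8 were called lower in susceptible pools, Rbfox3 and Nefl among them. The summed level of 8 choroid plexus markers, of which 6 were called lower in susceptible pools, was 34.6 to 206 CPM in control pools, 27.6 to 150 CPM in resilient pools and 15.4 to 67.9 CPM in susceptible pools. The 8 astrocyte markers summed to 2055 to 2440 CPM in control, 1936 to 2263 CPM in resilient and 1663 to 2055 CPM in susceptible pools, and the 8 oligodendrocyte markers to 3680 to 5422, 2352 to 4540 and 2271 to 3738 CPM. Calls among these went both ways, with 0 astrocyte markers called in resilient pools, 1 higher (Aldh1l1) and 3 lower in susceptible pools, and the oligodendrocyte gene Mag higher in both defeated groups. The 10 markers of BNST neurons overlapped between groups, at 1105 to 1268 CPM in control, 1111 to 1342 CPM in resilient and 1069 to 1238 CPM in susceptible pools. So did the summed levels of the 8 endothelial markers, at 172 to 208, 165 to 195 and 158 to 193 CPM. For the 6 markers of oligodendrocyte precursors the sums overlapped too, at 173 to 207, 149 to 191 and 174 to 194 CPM. Yet 3 of these 6 (Olig1, Olig2 and Sox10) were called lower and 0 higher in each defeated group. Over all genes, 9.04% were called lower in resilient and 9.28% in susceptible pools. Of the BNST neuron markers 1 was called higher and 1 lower in resilient pools, and 1 higher and 2 lower in susceptible pools. Of the endothelial markers 0 were called in resilient pools and 1, lower, in susceptible pools. The part of tissue composition in the microglial values was not tested. The experimental cohort of each pool is not in the labels.

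Within groups, the 9 genes did not rise and fall as one. Deviations from the group means were correlated over the 14 pools, which share library, depth and tissue composition, so r is given as a description. C1qb went with Tmem119 (Pearson r = 0.88, Spearman rho = 0.90), C1qc with Tmem119 (r = 0.77, rho = 0.73) and C1qb with C1qc (r = 0.70, rho = 0.75). Leaving out the 2 pools farthest from the median gave r = 0.92, 0.59 and 0.78, and leaving out the deepest pool gave 0.85, 0.70 and 0.61. C1qa was less tied to C1qb (r = 0.47), and 0.22 without the deepest pool. Siglech went the other way, with r = -0.70 for Trem2, -0.65 for C1qa and -0.64 for Tmem119, and -0.70, -0.50 and -0.54 without the deepest pool. Its r was below 0 with 6 of the other 8 genes, and had a median of -0.40, whereas the 28 pairs without Siglech had a median of 0.30. Without the deepest pool these became 5 of 8, -0.22 and 0.10, the r of Siglech with P2ry12 went from 0.21 to 0.60, and that with Tyrobp from -0.05 to 0.21. Aif1 had r between -0.24 and 0.25 with the other 8 genes. Its within-group SD of 0.33 was no larger than the 0.37 from counting error, so these r cannot show whether it goes with them. TREM2 and TYROBP work as a receptor and its adaptor, and their transcripts had r = 0.14. The within-group SD was 0.46 for Trem2 and 0.61 for Tyrobp, against 0.36 and 0.39 from counting error alone. Counting error weakens an r, so this value cannot show whether these transcripts go together.

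The map of correlations shows the block of Tmem119, C1qb and C1qc.

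**Figure D3:**
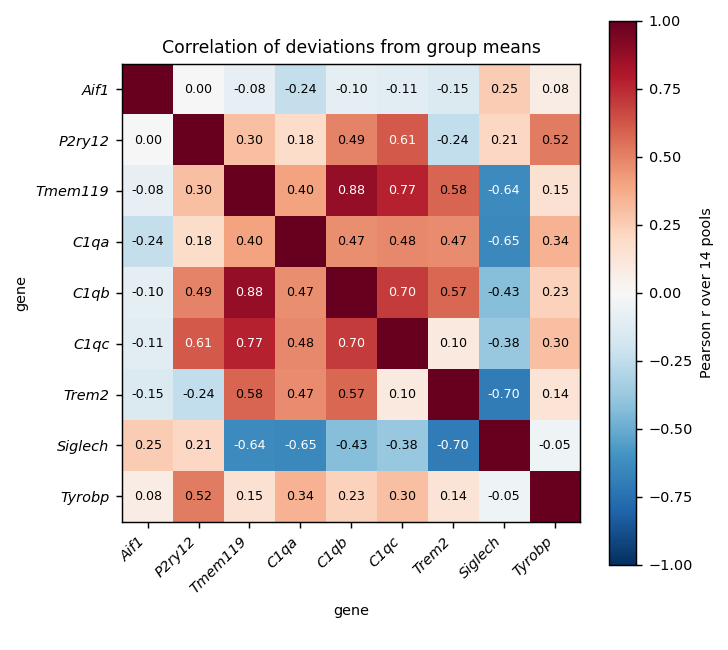
Pearson r between the deviations of each pair of genes from their group means over 14 pools (rows and columns are genes; red is positive, blue negative). Tmem119, C1qb and C1qc have r of 0.70 to 0.88 with each other, and the Siglech row is negative against Tmem119, C1qa and Trem2.

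The 10 genes whose within-group deviations were most like the mean of the 9 standardised genes included Ccno, Rimbp3, Stim1, Fbxo31, Tmbim6, Rplp1, Abi3bp, Dnal4 and Ctsd, with r from 0.93 for Ccno to 0.88 for Ctsd over 14 pools. Of these, Ctsd, a lysosomal protease, is in a list of phagocytic microglial genes. When the group means were kept in, 3 of these 10 were again among the top 10. Among 20 further genes of microglial identity the median r was 0.17, and it ranged from -0.57 to 0.74. All these r values include the deepest pool and were not computed without it.

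A few upstream and target sequences place these transcripts. The table of RefSeq promoters on GRCm38.p6 held 6 of the 9 genes (P2ry12, C1qb, C1qc, Siglech, Aif1 and Trem2). In the 250 bases before the start site, the letters GAGGAA, the core of the site of PU.1, a transcription factor that microglia need, were searched on both strands. They occurred in 4 of 6, against 23.3% of all 32851 promoters of that length. The longer GAGGAAGT, which contains it, was in 1 of 6 and in 2.44% of all. The matches of the neighbouring C1qb and C1qc genes are shown because these transcripts went together across pools. They lie at chr4:136886214-136886241 and chr4:136893091-136893120, both read on the minus strand, 5′ to 3′, with the match in capitals (in C1qc it is on the opposite strand).
C1qb: cagcaggatggGAGGAAcagaggggtga
C1qc: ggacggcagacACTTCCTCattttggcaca
A match is a description of letters and not evidence of binding.

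AGO2 is guided by the seed of a microRNA, its bases 2 to 8, so the 3′ untranslated regions (longest protein-coding annotation of GENCODE M21) were searched for exact matches to the seeds of the 30 most abundant AGO2-bound microRNAs of the control pools, 27 of which had a sequence in the RefSeq table. Matches were found in 3 of 9 genes, against 76.7% of 13911 genes with such a region. The regions of the 9 genes were short for the most part, 121 bases in Aif1, 163 in C1qb, 176 in Tyrobp, 240 in C1qa, 242 in C1qc, 252 in Trem2, 940 in P2ry12, 1170 in Tmem119 and 1362 in Siglech, and the median over all genes was 1247. P2ry12, the gene called in both defeated groups, had a match to the seed of miR-434-3p, the most abundant microRNA of the control pools, and to that of miR-204-5p. The mature sequences are shown, with the seed in capitals, for the microRNAs that had a match in these genes.
miR-434-3p: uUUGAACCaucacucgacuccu
miR-204-5p: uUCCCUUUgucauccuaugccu
miR-128-3p: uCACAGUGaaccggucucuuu
miR-27b-3p: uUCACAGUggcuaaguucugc
miR-127-3p: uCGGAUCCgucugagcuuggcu
The sites in the transcripts follow, with the letters that pair with the seed in capitals. The P2ry12 sites are at chr3:59216297-59216325 and chr3:59216772-59216800 on the minus strand, the Siglech site of miR-128-3p is at chr7:55778168-55778196 and the Tyrobp site at chr7:30417432-30417460, both on the plus strand, all GRCm38.
P2ry12, miR-434-3p: ttaggtataatGGTTCAAccttctttgcc
P2ry12, miR-204-5p: acaacaaaaccAAAGGGAcgtaaatcaaa
Siglech, miR-128-3p: ctgacaaaactCACTGTGactggggcagc
Tyrobp, miR-127-3p: gcctgatgcccGGATCCGgtcattccaga
The match of Siglech to miR-27b-3p starts 1 base further on and shares all but an end letter with that of miR-128-3p.

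The microRNAs were measured in separate libraries, 5 control, 5 resilient and 3 susceptible. miR-434-3p stood at 16.23 to 16.47 log2 CPM in control pools (median 16.41), at 16.16 to 16.59 in resilient pools (median 16.41) and at 16.04 to 16.32 in susceptible pools (median 16.27). miR-204-5p stood at 13.53 to 14.98 (median 14.78), 13.67 to 14.95 (median 13.88) and 13.38 to 14.34 (median 13.63) in the same order. Both overlapped between groups. miR-128-3p had medians of 14.64, 14.39 and 14.67, miR-27b-3p of 13.55, 13.71 and 13.46, and miR-127-3p of 13.06, 13.18 and 13.09. Whether any of these microRNAs was bound to these transcripts was not measured.

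Other genes of microglial identity were also mixed in direction. All 20 of a list that holds the receptors and transcription factors of microglia were in the table. In resilient pools 2 of 20 were called higher and 1 lower, and in susceptible pools 2 higher and 1 lower, with a median difference of -0.05 and -0.11. Such counts are near the shares over all genes, 8.65% higher and 9.04% lower in resilient pools and 9.65% and 9.28% in susceptible pools. Csf1r, the receptor for the growth factor on which microglia depend, was higher in both, by 0.38 (SE 0.13, adjusted p = 0.118) and 0.35 (SE 0.14, adjusted p = 0.156). Sall1, a transcription factor that in the brain's immune cells marks microglia, rose by 0.40 in the resilient (SE 0.10, adjusted p = 0.0423) and by 0.34 in the susceptible group (SE 0.10, adjusted p = 0.0724). Itgam, which encodes the complement receptor subunit CD11b, was lower in susceptible pools, with a log2 difference of -0.89 from controls (SE 0.34, adjusted p = 0.144) and of -0.80 from resilient pools (SE 0.34, adjusted p = 1.00). The fractalkine receptor Cx3cr1 had differences of 0.04 and -0.14, without a call. The calls of Sall1 in both groups and of Csf1r in resilient pools held in all 23 other settings. That of Csf1r in susceptible pools was lost without control pool 2 (0.29), susceptible pool 2 (0.27) or susceptible pool 4 (0.33) and with the replicate block, and that of Itgam against controls without control pool 2 (-0.72) or control pool 4 (-0.74). The difference of Itgam from resilient pools was no longer called without resilient pool 2 or 5 or susceptible pool 3 or 4, at -0.60 to -0.74, nor with voom weights (-0.57).

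**Figure D4:**
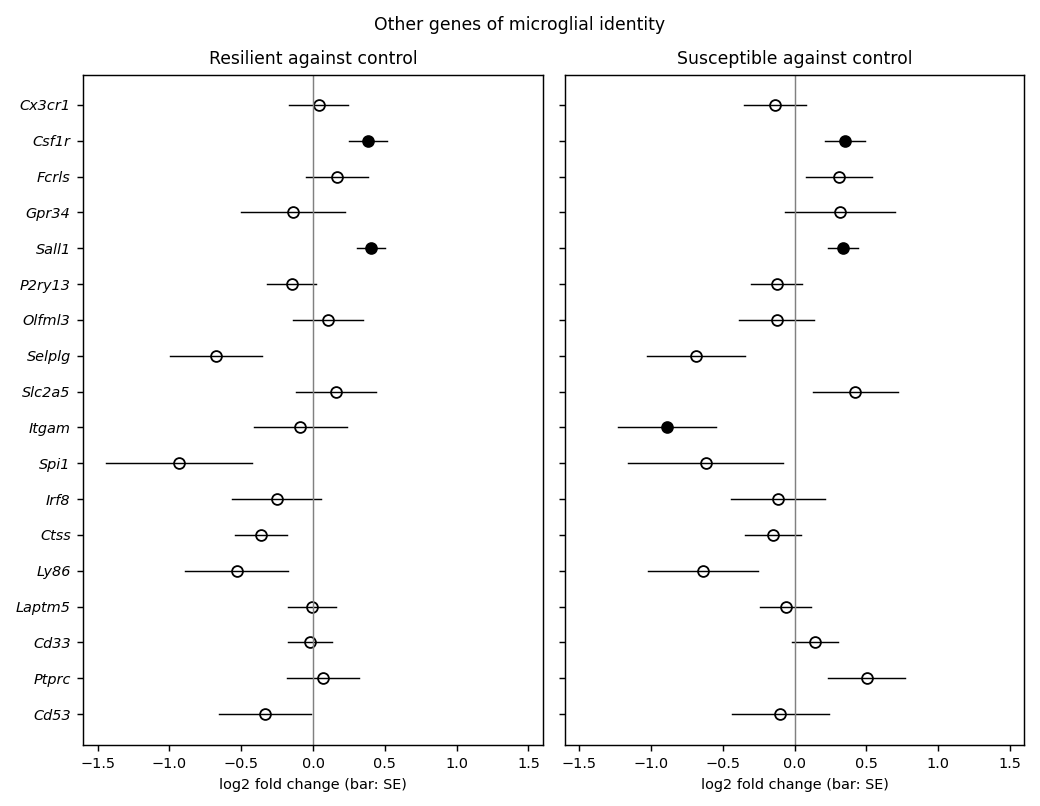
Log2 fold change (horizontal axis, bar: SE) of 18 of the 20 further genes of microglial identity in resilient and in susceptible pools against control; filled circles mark genes that met the call rule. Csf1r and Sall1 are called higher in both panels and Itgam lower in susceptible pools.

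Of the genes that pass on signals from TREM2, TYROBP and Fc receptors, 11 of 12 were in the table and 0 were called in any comparison; Inpp5d and Lyn, whose products work downstream of such receptors, had differences of -0.15 and -0.20 in resilient and 0.00 and -0.32 in susceptible pools. Unadjusted p was under 0.05 for 0 of these 11 as well. Of the complement genes beyond C1q, 10 of 16 were in the table, among which C4b, the next component cleaved after C1 is activated, was higher by 0.71 in the resilient (SE 0.22, adjusted p = 0.0937) and by 0.75 in the susceptible group (SE 0.24, adjusted p = 0.0818). Besides Itgam, the complement inhibitor Cd59a fell by 0.75 in the susceptible group (SE 0.29, adjusted p = 0.151). The calls of C4b held in all 23 other settings, while that of Cd59a was lost without control pool 3 (-0.64), susceptible pool 2 (-0.49) or susceptible pool 3 (-0.65). C4b is also made by astrocytes and Cd59a by many cells.

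Of the genes of disease-associated or phagocytic microglia 10 of 14 were in the table. Lpl, a lipase that neurons and microglia both express, fell by 1.01 in the susceptible group relative to controls (SE 0.26, adjusted p = 0.0387) and by 0.66 relative to resilient pools (SE 0.26, adjusted p = 1.00), and 0 of 10 were called in resilient pools. Of 16 inflammatory genes 8 were in the table, and Il1b and Tnf were not among them. Il1a, a cytokine gene of microglia, was higher by 0.73 in the resilient (SE 0.29, adjusted p = 0.169) and by 0.70 in the susceptible group (SE 0.31, adjusted p = 0.202), at a mean of 1.65 log2 CPM. The inhibitor of NF-kB gene Nfkbia fell by 0.61 (SE 0.23, adjusted p = 0.144) and the interleukin 6 receptor gene Il6ra by 0.72 (SE 0.30, adjusted p = 0.182) in susceptible pools. The call of Lpl against controls held in all 23 other settings, and that against resilient pools was lost without resilient pool 1 or susceptible pool 3 or 4 (-0.50 to -0.57). Il1a was no longer called in resilient pools without control pool 1 or resilient pool 2 or with voom weights (0.61 to 0.66), nor in susceptible pools without control pool 1, 2 or 5 or susceptible pool 1 or 4 (0.51 to 0.71). Nfkbia was not called without susceptible pool 2 (-0.42) or 3 (-0.53), nor Il6ra without control pool 1, 2 or 4 or susceptible pool 1 or 2 (-0.44 to -0.69), without a trend (-0.72), with array weights (-0.61) or with voom weights (-0.64).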

How the data were processed

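AGO2-bound mRNA of 14 BNST pools was analysed, with the AGO2-bound miRNA and blood mRNA tables as side values. The authors aligned reads to GRCm38 with STAR, counted them on gene exons with HTSeq, kept genes with at least 1 CPM in at least 3 AGO2 pools and deposited log2 CPM values made with voom. The study adjusted its AGO2-bound mRNA data for experimental cohort, whereas these log2 values hold no cohort correction. All 232218 went back to whole reads (tolerance 0.0001), which gave the depth. All 3 groups were fitted together on all genes with limma 3.58.1 in R 4.3.3 (empirical Bayes with a mean-variance trend, two-sided), and p was adjusted by the Benjamini-Hochberg method. Single genes were also tested by exact two-sided permutation of pools, whose smallest p is 0.00794. Per the methods of the study, the order of killing was balanced over days and phenotypes; the labels give no day for a pool, and p-values measure the spread between pools. Intervals of counting error cover counting only. The procedure was tested on simulated data. Gene positions and transcripts come from GENCODE M21. Plots used matplotlib 3.10.9 under Python 3.11.15. The 9 genes and all lists were chosen with earlier results of these data known. By the naming rule, all 9 genes, up to 4 genes of a list (called ones with the smallest p, otherwise the most abundant) and the 10 most similar genes were named, and any other name was chosen after seeing its values. Blood miRNA was not used here. Some genes that the rule names are not reported here.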

Additional observations from a re-analysis of the deposited data

Results flagged for a closer look

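In Trem2, resilient pool 4 stood apart from the other resilient pools, at 0.61 log2 CPM on 9 reads, where the other 4 pools lay between 1.72 and 2.10. Its gap to the nearest of them was 0.740 of the range of the group. It was the only such pool in 27 sets of values (9 genes in 3 groups), where chance alone sets apart about 1 group in 20.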

How the results depend on the processing

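The count of 1 of 9 genes called in resilient pools against controls became 2 with array weights and 1 to 3 with 1 pool left out (3 without resilient pool 3, 2 without susceptible pool 3). The 2 genes called in susceptible pools became 0 with scaling to total reads, 1 with quantile normalization, 0 with voom weights on the recovered reads, and 0 to 2 with 1 pool left out. They were 0 without control pool 4, control pool 5, susceptible pool 3 or susceptible pool 4, and 1 without control pool 1 or 2, resilient pool 1 or 4, or susceptible pool 2. In susceptible against resilient pools the 0 became 1 without a trend and 1 with quantile normalization, and 0 to 1 with 1 pool left out (C1qb, without resilient pool 4, susceptible pool 1 or susceptible pool 2). The causes were not tested. The numbers of the pools did not pair them (r from -0.17 to 0.14 over 13 pairs, 2 over 0.1), and with the number as a replicate block the counts were 1, 0 and 0. The adjusted p of P2ry12 in resilient pools ranged from 0.0235 to 0.196 and in susceptible pools from 0.119 to 0.465, and that of C1qb in susceptible pools from 0.125 to 0.417. Over all genes, the count at an adjusted p under 0.05 was 324 in resilient pools, from 13 without a trend to 1949 without resilient pool 3, and 666 in susceptible pools, from 36 without susceptible pool 2 to 1428 with array weights. The called genes in susceptible against resilient pools, 355 in all, ranged from 219 with a filter at a mean of 2 log2 CPM, which also removed Aif1, Trem2 and Tyrobp, to 947 without resilient pool 3. No scaling moved the median gene by over 0.1. Lengths of the longest protein-coding transcript were added after seeing the data. The planned negative binomial tests were not run, since the deposited unit is log2. At 4 to 208 reads per gene and pool, counting error alone gave an SD of 0.13 to 0.39 on the log2 scale. Of 21 calls of genes named from the lists that were followed through the other settings, 9 held in every setting and 12 were lost in at least 1. The calls of Aldh1l1, Mag, Olig1, Olig2 and Sox10 were not followed in this way.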
